A study of Mus musculus with 21 samples.

Results

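Fibrinogen is made from 3 genes, Fga, Fgb and Fgg, which encode its Aα, Bβ and γ chains. These 3 genes were chosen by symbol among the 9657 genes in the files, and all 3 were measured in every library. The data are 21 QuantSeq libraries, which read the 3′ ends of polyadenylated RNA, from primary hepatocytes of genotype WT, liver cells taken from mice into culture. RNA was taken on Day 1. The groups were PBS and TTR-1236, TTR-1186 or Reference 4, which are 3 agents that silence Ttr by RNA interference, each used at 0.2 µM and 2 µM, with 3 libraries in each of the 7 groups. PBS is the only control, so in the comparisons with PBS the loss of Ttr cannot be told apart from receiving any RNAi agent. Whether the replicates are different animals or different cultures is not stated in the labels, so all p-values measure only how far these samples spread, and that spread may be technical.

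Fibrinogen is secreted by hepatocytes into blood plasma. Its chains are joined by disulfide bonds in the endoplasmic reticulum into a molecule that holds a pair of each, and thrombin cuts it to fibrin, the mesh of a blood clot. The chain genes lie side by side and are known as acute phase genes that interleukin-6 raises through STAT3, with C/EBP factors also acting at their promoters. A question for these data is whether their mRNAs moved together across agents and doses.

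In GRCm38, the assembly of mm10, the 3 genes lie within 42140 bases of chromosome 3. Fgg (ENSMUSG00000033860) is at chr3:83007724-83015049 on the plus strand, Fga (ENSMUSG00000028001) at chr3:83026076-83033627 on the plus strand, and Fgb (ENSMUSG00000033831) at chr3:83040141-83049863 on the minus strand. The annotation gives Fga 2 coding transcripts with different 3′ ends, at 83032263 and 83033627, Fgg 2 with ends at 83014705 and 83015049, and Fgb 1. A value per gene does not show which end was read. Gm30097, a long noncoding RNA that is not among the genes in the files, overlaps the 5′ end of Fgg on the opposite strand, and no source used here gives the strand setting of the counting.

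The sequences just upstream of the 3 genes are shown because the chains are known as targets of the same cytokine. They are from RefSeq on GRCm38.p6, each on its gene's own strand, 5′ to 3′, with CTGGGA, the core of the interleukin-6 response element, in capitals. Fga is shown at chr3:83025903-83026075 (plus strand), leaving out the 77 bases nearest its RefSeq start that lie inside the annotated gene, Fgb at chr3:83049864-83050113 (minus strand) and Fgg at chr3:83007474-83007723 (plus strand).
Fga: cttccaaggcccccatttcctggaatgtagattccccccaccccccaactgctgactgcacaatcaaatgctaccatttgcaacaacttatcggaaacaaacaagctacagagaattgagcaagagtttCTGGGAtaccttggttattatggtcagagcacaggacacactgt
Fgb: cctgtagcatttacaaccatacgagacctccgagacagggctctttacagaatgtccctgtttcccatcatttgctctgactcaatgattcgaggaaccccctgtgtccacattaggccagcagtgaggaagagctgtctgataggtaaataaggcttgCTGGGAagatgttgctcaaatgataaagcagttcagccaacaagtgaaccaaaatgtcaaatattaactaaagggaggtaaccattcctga
Fgg: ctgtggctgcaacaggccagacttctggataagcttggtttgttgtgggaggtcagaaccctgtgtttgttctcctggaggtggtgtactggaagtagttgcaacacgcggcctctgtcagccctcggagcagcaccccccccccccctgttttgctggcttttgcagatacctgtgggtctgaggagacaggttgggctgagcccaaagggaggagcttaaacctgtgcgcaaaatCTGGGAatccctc
The core occurred 1 time upstream of each chain, 121 to 116 bases before the RefSeq start of Fga, 91 to 86 before that of Fgb and 13 to 8 before that of Fgg. It also occurred in 27.0% of all 32851 promoters, searched on both strands over the same 250 bases. TTCNNNGAA (a STAT site, in 7.02% of promoters) and TTGCNNAA (a C/EBP site, 9.56%) each had 1 match in Fga, 1 in Fgb and 0 in this window of Fgg. TATAAA was in none of the 3 windows and in 12.4% of all promoters. The motifs were chosen with these sequences in view, and a match describes letters, not binding.

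Levels are in CPM, counts scaled so that every library sums to 1000000 over the genes in the files. The reads behind them numbered 14158740 to 37410773 per library. Each chain was deeply read, with 1494 to 8589 reads per library for Fga, 9256 to 39217 for Fgb and 2348 to 8588 for Fgg. Ttr, the targeted gene, was at 2168 to 2336 CPM in the PBS libraries and at 3.19 to 27.1 CPM in the treated ones. Of 13 hepatocyte markers 12 were measured, with a summed level of 22019 to 36013 CPM over all libraries. Albumin (Alb) alone was at 5182 ± 728 CPM (SD, n = 3) in PBS. Platelet and megakaryocyte markers, from cells that also carry fibrinogen, had 0 of 10 members among the genes in the files.

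Fga, the Aα chain, was lower than in PBS at 0.2 µM of every agent. Its PBS libraries held 245, 243 and 224 CPM. With TTR-1236 at 0.2 µM they held 167, 187 and 129 CPM, with TTR-1186 120, 98.9 and 100.5 CPM, and with Reference 4 122, 135 and 101 CPM. None of these 9 libraries reached the lowest PBS library, and the group means were 67.9%, 44.9% and 50.3% of the PBS mean. At 2 µM, TTR-1236 gave 175, 254 and 205 CPM, TTR-1186 139, 172 and 164 CPM, and Reference 4 238, 235 and 228 CPM. Only TTR-1186 stayed below PBS without overlap at this dose, at 66.8% of the PBS mean, against 89.1% for TTR-1236 and 98.4% for Reference 4.

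Fgb, the Bβ chain, showed the same order of doses with a wider spread in PBS, where the libraries held 1448, 1463 and 1055 CPM. At 0.2 µM the libraries held 787, 962 and 670 CPM with TTR-1236, 863, 640 and 711 CPM with TTR-1186, and 823, 618 and 723 CPM with Reference 4. All 9 lay below the lowest PBS library, PBS replicate 3, and the means were 61.0%, 55.8% and 54.6% of PBS. At 2 µM they held 869, 1160 and 1274 CPM with TTR-1236, 654, 1016 and 961 CPM with TTR-1186, and 1010, 1013 and 1110 CPM with Reference 4. TTR-1236 and Reference 4 overlapped PBS here, at 83.3% and 79.0% of its mean, and TTR-1186 did not, at 66.4%.

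Fgg, the γ chain, had the closest PBS libraries, 248, 252 and 259 CPM. At 0.2 µM it was at 178, 223 and 159 CPM with TTR-1236, 155, 189 and 127 CPM with TTR-1186, and 183, 209 and 182 CPM with Reference 4. These 9 libraries also lay below every PBS library, though the means were nearer to it, at 73.8%, 62.0% and 75.7%. At 2 µM it was at 244, 249 and 239 CPM with TTR-1236, 183, 149 and 183 CPM with TTR-1186, and 276, 261 and 207 CPM with Reference 4. Again TTR-1186 alone did not overlap PBS, at 68.0% of its mean, against 96.5% and 98.0% for TTR-1236 and Reference 4.

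**Figure D1:**
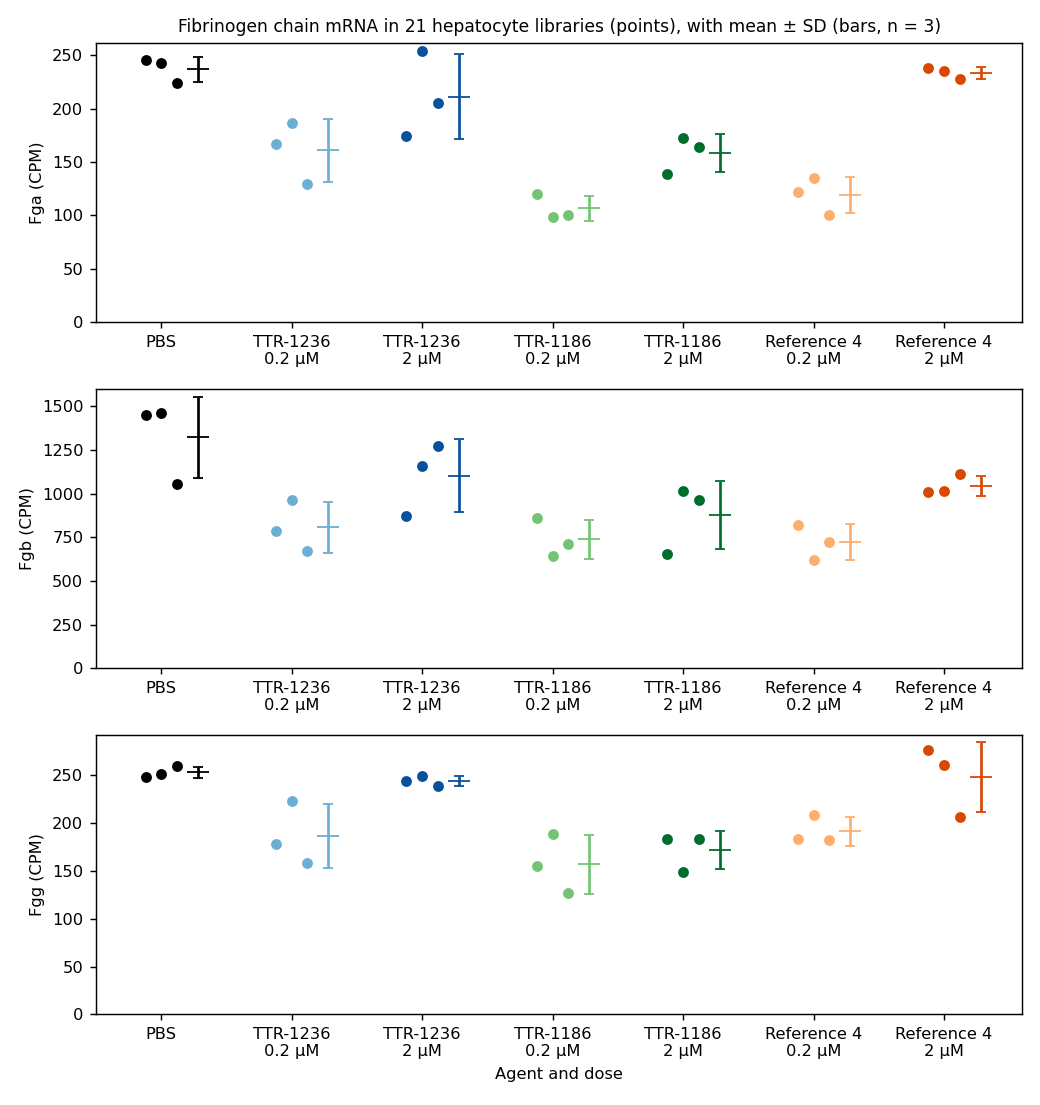
Level of each chain (CPM, linear axis from 0) by agent and dose, with 1 point per library and the mean ± SD of 3 libraries beside it. All 3 chains lie below PBS in the 0.2 µM groups and in TTR-1186 at 2 µM, and overlap PBS in TTR-1236 and Reference 4 at 2 µM.

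All 3 chains were thus below PBS without overlap in 4 of the 6 treated groups. The share of all genes whose libraries were all below PBS was 5.41% for TTR-1236 at 0.2 µM, 9.6% for TTR-1186 at 0.2 µM, 10.5% for Reference 4 at 0.2 µM and 5.85% for TTR-1186 at 2 µM. In TTR-1236 and Reference 4 at 2 µM, where no chain was, it was 11.9% and 10.8%. Over the 18 treated libraries, 14 were below the lowest PBS library for Fga, 15 for Fgb and 15 for Fgg. The comparisons with PBS share the same 3 control libraries. In bulk RNA, fewer cells expressing a gene and less of its RNA per cell cannot be told apart.

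In the test over all genes, only Fga passed the threshold against PBS. Differences were fitted with limma on log2(CPM + 1), and "rose" and "fell" are kept for an adjusted p under 0.05 (Benjamini-Hochberg over all genes). Fga fell by 1.15 on the log2 scale (SE 0.16, adjusted p = 9.573e-04) with TTR-1186 at 0.2 µM, where 0.0311% of genes passed. It fell by 0.995 (SE 0.16, adjusted p = 0.00732) with Reference 4 at 0.2 µM, where 0.166% passed. The TTR-1236 difference at 0.2 µM, -0.57 (SE 0.16), did not pass (adjusted p = 0.472, 0.0207% of genes passed).

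The Fga calls rested on the spread shared by all groups. Fitted on only the libraries compared, the same differences had adjusted p = 0.217 for TTR-1186 and 0.265 for Reference 4, and the Reference 4 call was also lost without PBS replicate 1 (adjusted p = 0.0683).

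Fgb differed from PBS at 0.2 µM by -0.71 with TTR-1236, -0.84 with TTR-1186 and -0.87 with Reference 4 (SE 0.18 each). Their adjusted p were 0.330, 0.123 and 0.0518, so none passed. All 3 passed without PBS replicate 3, the lowest PBS library (adjusted p = 0.0378, 0.0255 and 0.0131), where the genes called rose from 2, 3 and 16 of 9657 to 63, 41 and 175. DESeq2 on the recovered reads called the TTR-1186 and Reference 4 differences with all libraries kept (adjusted p = 0.0312 and 0.00738), among 21 and 88 genes in all. Fgg differed by -0.45, -0.71 and -0.40 (SE 0.16 each), with adjusted p = 0.540, 0.127 and 0.247. The intervals of the 3 chains at 0.2 µM overlapped one another within each agent.

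At 2 µM no chain passed in limma, and edgeR and DESeq2 on the recovered reads called none either. With TTR-1186 the differences were close to one another, -0.59 for Fga, -0.60 for Fgb and -0.56 for Fgg (adjusted p = 0.210, 0.277 and 0.221), where 0.0518% of genes passed. All 3 had an unadjusted p under 0.05, as had 890 of the 9657 genes. With TTR-1236 they were -0.18, -0.27 and -0.05, and with Reference 4 -0.02, -0.33 and -0.04, none with an unadjusted p under 0.05. In those groups 6.33% and 2.25% of genes passed, and the signs of Fgg with TTR-1236 and of Fga and Fgg with Reference 4 turned under other scalings (TMM or DESeq2 size factors), from values near 0. Over all treated groups against PBS, the differences were -0.58 for Fga (SE 0.12, adjusted p = 0.0605), -0.60 for Fgb (SE 0.14, 0.0813) and -0.37 for Fgg (SE 0.12, 0.196), with 0.0725% of genes past the threshold. Without PBS replicate 3 Fga and Fgb passed (adjusted p = 0.0156 and 0.00862), among 639 genes called in place of 7. Fga also passed without replicate 1 or 2 of TTR-1236 at 2 µM (0.0461 and 0.0419, 22 and 11 genes called), and DESeq2 called both chains (0.0153 and 0.0248) among 109 genes.

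**Figure D2:**
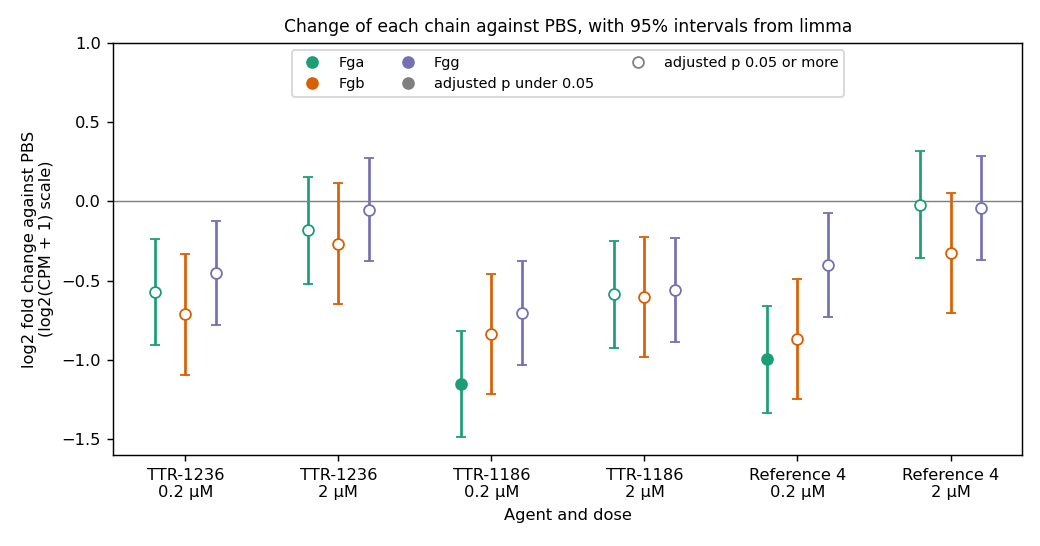
Log2 fold change of each chain against PBS (log2(CPM + 1) scale) by agent and dose, with 95% intervals from limma and filled points where the adjusted p was under 0.05. Only Fga with TTR-1186 and with Reference 4 at 0.2 µM is filled, and the TTR-1186 points at 2 µM lie together near -0.6.

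Between doses, the chains were higher at 2 µM than at 0.2 µM under every agent. Fga rose with Reference 4 by 0.97 (SE 0.16, adjusted p = 0.00210), while Fgb differed by 0.54 (SE 0.18, 0.0532) and Fgg by 0.36 (SE 0.16, 0.131), where 12.8% of genes passed. With TTR-1236 the differences were 0.39, 0.45 and 0.40 (adjusted p = 0.340, 0.333 and 0.317), where 0.135% passed. With TTR-1186 they were 0.57, 0.23 and 0.14 (adjusted p = 0.158, 0.571 and 0.713), where 0% passed in limma and edgeR, 1415 genes had an unadjusted p under 0.05 in limma and 71 passed in DESeq2.

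Over all 3 agents, a contrast added after the levels were seen, all 3 chains rose with dose. Fga rose by 0.64 (SE 0.09, adjusted p = 3.335e-04), Fgb by 0.41 (SE 0.11, 0.0104) and Fgg by 0.30 (SE 0.09, 0.0233). This contrast called 18.9% of all genes, so that the chains are 3 of 1821. The Fgg call was lost without replicate 3 of TTR-1236 at 0.2 µM (adjusted p = 0.0605) or replicate 3 of TTR-1186 at 0.2 µM (0.0629). Alb, which hepatocytes express at a high level, rose in the same contrast by 0.39 (SE 0.08, adjusted p = 0.00235). Of the 12 measured hepatocyte markers, Alb among them, 5 rose and 0 fell, beside 850 and 971 of all 9657 genes. The part of these markers in the chains' rise was not tested.

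No chain differed past the threshold between agents at the same dose in limma, over 6 comparisons and 3 chains, and DESeq2 called 2 of the 18. At 0.2 µM, Fga was higher with TTR-1236 than with TTR-1186 by 0.58 (95% interval 0.24 to 0.92, adjusted p = 0.558) and than with Reference 4 by 0.42 (0.09 to 0.76, 0.217), and TTR-1186 and Reference 4 differed by -0.16 (-0.49 to 0.18, 0.983). Fgb and Fgg differed by between -0.30 and 0.25 in these comparisons. At 2 µM, Fga and Fgg lay lower with TTR-1186 than with both other agents: Fga by -0.56 against Reference 4 (-0.90 to -0.23, adjusted p = 0.147), and Fgg by -0.52 (-0.85 to -0.19, 0.179). TTR-1236 exceeded TTR-1186 by 0.40 for Fga (0.07 to 0.74, 0.230) and 0.51 for Fgg (0.18 to 0.84, 0.125). For Fgb the intervals spanned both signs. It differed by -0.28 for TTR-1186 against Reference 4 (-0.66 to 0.10, 0.585) and by 0.34 for TTR-1236 against TTR-1186 (-0.04 to 0.72, 0.383). DESeq2 called the Fga difference between TTR-1186 and Reference 4 (adjusted p = 0.0387), among 127 genes, and the Fgg difference between TTR-1236 and TTR-1186 (0.0442), among 306. All 12 measured hepatocyte markers were lower with TTR-1186 than with Reference 4 at 2 µM, beside 4708 of all 9657 genes. With TTR-1236 against TTR-1186 at 2 µM, 11 were higher and 1 lower, beside 4383 and 5274 of all genes. In limma 0 of these marker differences passed, and their part in the chains' differences was not tested.

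At 0.2 µM, 0% of genes passed between any pair of agents in limma and edgeR, with 685 genes at an unadjusted p under 0.05 for TTR-1236 against TTR-1186, 1351 against Reference 4 and 475 for TTR-1186 against Reference 4, and DESeq2 called 3, 238 and 0. At 2 µM, 0.342% passed for TTR-1236 against TTR-1186, 0.373% for TTR-1186 against Reference 4 and 0% for TTR-1236 against Reference 4, where 288 had an unadjusted p under 0.05, edgeR called 0 and DESeq2 1. The effect of dose did not differ between agents past the threshold for any chain (9 interactions, lowest adjusted p = 0.376). In limma 0 of all 9657 genes passed in any of these contrasts, so this result does not set the chains apart. At an unadjusted p under 0.05 were 658 genes for TTR-1236 less TTR-1186, 914 for TTR-1236 less Reference 4 and 874 for TTR-1186 less Reference 4. DESeq2 called 0, 66 and 25 genes in that order, with no chain among them. The lowest value was that of Fga for TTR-1236 less Reference 4, -0.58 (interval -1.06 to -0.11, unadjusted p = 0.018 in limma). The intervals of the other interactions spanned both signs.

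The 3 pairs of chains each had a positive r over all libraries, and within groups it was high for Fga and Fgb alone. Over the 21 libraries, Fga and Fgb had a Pearson r of 0.84 (permutation p = 1e-05, the smallest the resamples can give, adjusted 3e-05; Spearman rho 0.85), Fga and Fgg one of 0.78 (permutation p = 7e-05, adjusted 1e-04; rho 0.78), and Fgb and Fgg one of 0.59 (permutation p = 0.00469; rho 0.58, 0.00715). Left without the 2 libraries farthest from the median of the first gene, r was 0.82, 0.77 and 0.62. Over the 18 treated libraries it was 0.82, 0.73 and 0.50. The libraries of a group share its treatment. The permutations shuffled all 21 libraries freely, so their p-values do not take the groups into account. After subtracting group means r was 0.63 for Fga and Fgb, 0.28 for Fga and Fgg and -0.12 for Fgb and Fgg. Over the 7 group means it was 0.93, 0.90 and 0.87. The pairs with Fgg thus had a much lower r within groups than between them, and Fga and Fgb a closer one.

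**Figure D3:**
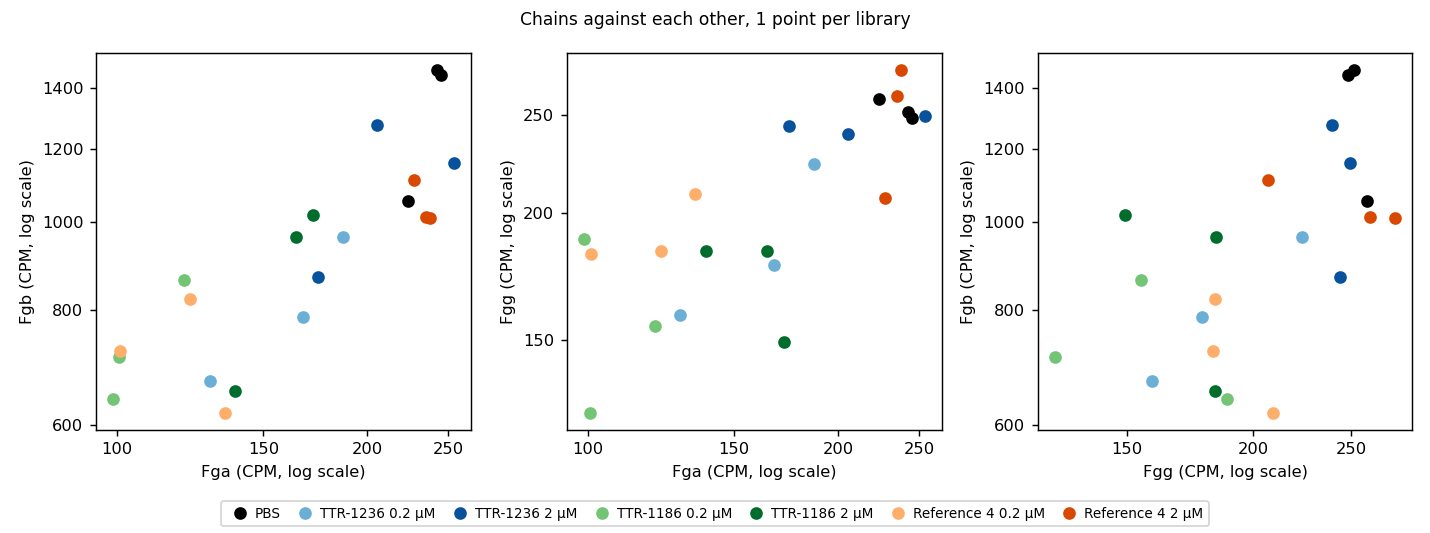
Chains against each other (CPM, log axes), with 1 point per library coloured by group. Fga and Fgb (r = 0.84) form the narrowest band, and Fgb and Fgg (r = 0.59) the widest.

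The ratios between chains are a measure in which library scaling cancels, and none of the 3 differed between treated and PBS libraries past the threshold. Fga to Fgb was 0.166 to 0.212 in PBS, and its mean log2 in treated libraries differed by 0.02 (exact permutation test, two-sided, p = 0.922). Fga to Fgg was 0.863 to 0.989 in PBS and differed by -0.22, and Fgb to Fgg was 4.07 to 5.84 and differed by -0.23 (exact permutation p = 0.249 and 0.243, both adjusted to 0.373). These 3 ratios were tested over 18 treated and 3 PBS libraries. The test pools the treated groups, so shifts in opposite directions can cancel, and it does not show a constant ratio. The mean log2 of Fga to Fgb differed from PBS by -0.32 with TTR-1186 at 0.2 µM and by 0.30 with Reference 4 at 2 µM. Of the 18 treated libraries, 6 lay below the PBS range of this ratio and 5 above it.

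By group, Fga to Fgg lay below PBS without overlap with Reference 4 at 0.2 µM, at 0.621 ± 0.061 (SD, n = 3), and with TTR-1186 at 0.2 µM, at 0.698 ± 0.150. The PBS mean was 0.938 ± 0.067. Fga to Fgb lay below PBS without overlap only with TTR-1186 at 0.2 µM, at 0.145 ± 0.008 against 0.182 ± 0.026 in PBS. These are the groups in which Fga passed the test, and Fga is part of the ratio. Groups of 3 against 3 cannot reach an exact permutation p under 0.1, so these ratios by group are values, not calls. At 2 µM all 3 ratios overlapped PBS in every agent.

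**Figure D4:**
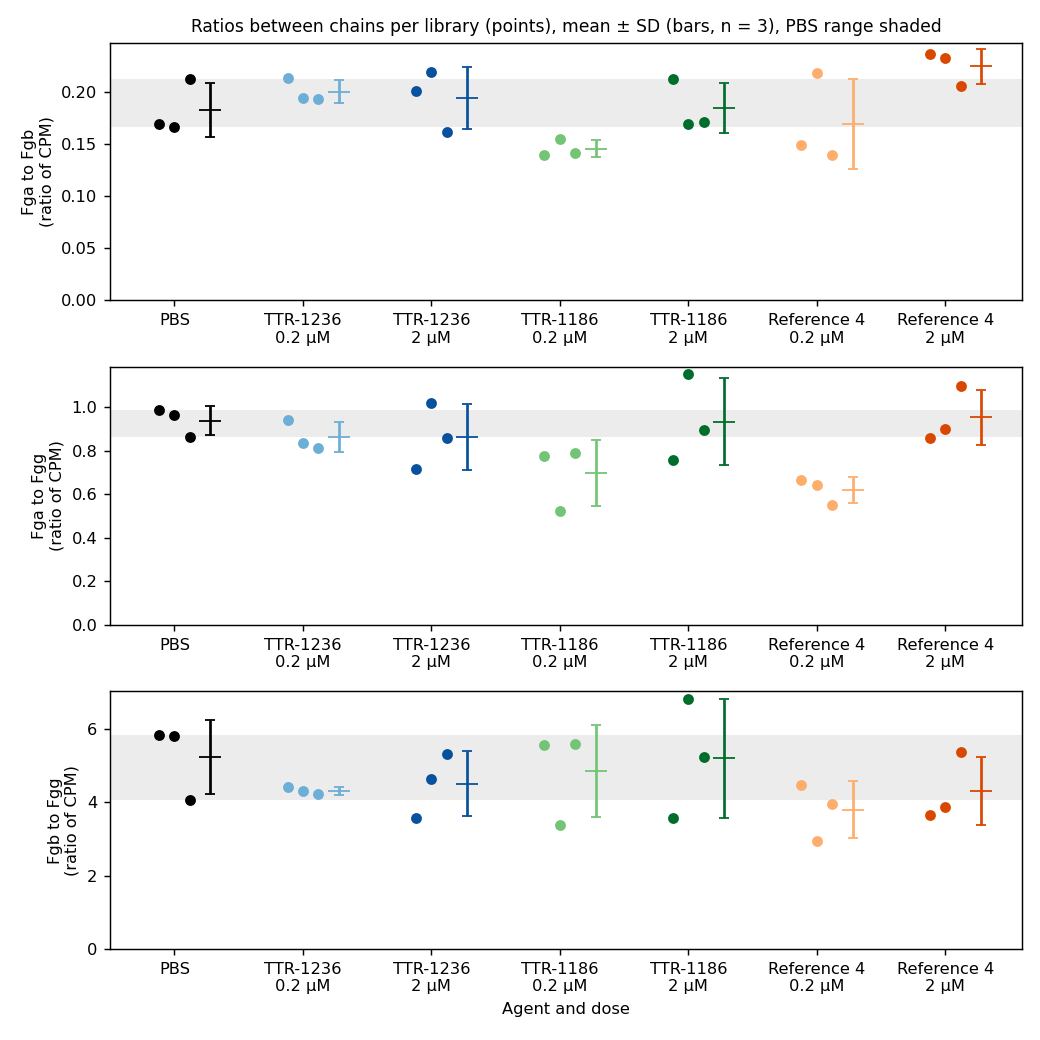
Ratio of CPM between chains by agent and dose, with 1 point per library, the mean ± SD of 3 libraries and the PBS range shaded. Fga to Fgg lies below the shaded range in TTR-1186 and Reference 4 at 0.2 µM.

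By likeness over the 21 libraries, Fgb was the 14th and Fgg the 36th most like Fga among 6513 other genes. These had a mean of at least 10 CPM, and predicted genes, clone-named genes and pseudogenes were left out. Those nearest to Fga were Mt2, a metal-binding metallothionein (r = 0.92), Igfbp1, a secreted binding protein of insulin-like growth factors (0.90), and Hmga1, a chromatin protein (0.89), followed by Serinc3 (0.88), beside Hmga1b, a near-identical copy of Hmga1 whose reads cannot be separated with certainty. Fga ranked 4th for Fgb, after Arpc5 (0.86), a subunit of the Arp2/3 complex that branches actin, Khsrp (0.85), an RNA-binding protein, and Tor1aip2 (0.85), and before Daglb (0.83). Fga also ranked 4th for Fgg, after Igfbp1 (0.83), Cdo1 (0.80), the enzyme that oxidises cysteine, and Mt2 (0.78), and before Fabp1 (0.77), a fatty acid-binding protein. Fgg was the 304th most like Fgb, and Fgb the 86th most like Fgg. After subtracting group means, Fgb ranked 88th and Fgg 1568th for Fga, Fga 361st and Fgg 4446th for Fgb, and Fga 736th and Fgb 4223rd for Fgg. These orders are descriptions over libraries that share treatments. Mt2, Hmga1, Khsrp, Tor1aip2 and Daglb each overlap a gene in the files on the opposite strand, so their reads are uncertain.

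Other measures of a library were also compared with the chains, over 9 relations. Alb correlated with Fga (r = 0.75, adjusted permutation p = 9.9e-04), Fgb (0.62, 0.0127) and Fgg (0.45, 0.0888). After subtracting group means these r were 0.42, 0.53 and -0.02. Its mean was 5496 CPM with TTR-1236 at 0.2 µM, 4288 CPM with TTR-1186 and 3662 CPM with Reference 4. At 2 µM it was 6101, 5059 and 6388 CPM in the same order. Reads of mitochondrial ribosomal RNA made up 3.26%, 2.70% and 0.797% of PBS replicates 1, 2 and 3, a mean of 2.25%. Group means were 1.64% to 2.78% at 0.2 µM and 0.412% to 1.59% at 2 µM. This percentage had r = -0.52 to Fga, -0.35 to Fgb and -0.42 to Fgg (adjusted permutation p = 0.0536, 0.156 and 0.110). After subtracting group means these r were 0.10, 0.08 and 0.14. The number of reads in a library had r = 0.38 to Fga, 0.13 to Fgb and 0.10 to Fgg (adjusted permutation p = 0.139, 0.651 and 0.662). After subtracting group means these r were 0.35, 0.01 and 0.23. The part of Alb, of this RNA and of depth in the chains' differences was not tested. The stellate cell markers Dcn and Acta2, 2 of 10 on their list in the files, summed to 9.91 to 25.1 CPM in PBS. They lay above PBS without overlap with TTR-1236 at 0.2 µM (26.2 to 28.5 CPM), TTR-1186 at 0.2 µM (26.3 to 37.0 CPM) and TTR-1186 at 2 µM (31.0 to 49.6 CPM). Dcn alone (6.57 to 13.7 CPM in PBS) overlapped PBS at 0.2 µM with TTR-1236 (9.07 to 15.5 CPM) and TTR-1186 (10.6 to 18.8 CPM). Acta2 alone (3.34 to 11.5 CPM in PBS) overlapped it with TTR-1236 at 0.2 µM (11.1 to 17.1 CPM). Acta2 did not overlap PBS with TTR-1186 at either dose or with Reference 4 at 0.2 µM (13.4 to 26.8 CPM). Dcn did not overlap PBS with TTR-1186 at 2 µM. The sum of Dcn and Acta2 overlapped PBS with Reference 4 at 0.2 µM (21.6 to 32.4 CPM), and at 2 µM with TTR-1236 (22.9 to 23.3 CPM) and Reference 4 (14.6 to 27.3 CPM). From 0.2 µM to 2 µM of Reference 4, 1 of these 2 markers fell, beside 584 of all 9657 genes. Kupffer cell markers (2 of 12) summed to 79.6 to 101 CPM in PBS and lay above it without overlap with TTR-1236 at both doses (102 to 133 CPM and 102 to 157 CPM) and Reference 4 at 2 µM (128 to 157 CPM). Endothelial markers (3 of 10) summed to 36.6 to 45.4 CPM in PBS and lay below it without overlap with TTR-1186 at 2 µM (26.1 to 30.8 CPM). In that group 5.85% of all genes lay below PBS without overlap. Cholangiocyte markers (3 of 7) summed to 37.1 to 56.0 CPM in PBS and lay above it without overlap at 2 µM with TTR-1236 (58.2 to 66.2 CPM) and Reference 4 (56.8 to 64.9 CPM). The share of all genes above PBS without overlap was not computed, so the marker sums above PBS have no background beside them. The part of these markers in the chains' differences was not tested.

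The list of clotting factors other than fibrinogen includes proteases and cofactors of the cascade that ends in fibrin. It also holds Ggcx, an enzyme that acts on some of them, and had 13 of 19 members measured. Of these 0 passed against PBS over all treated groups in limma, edgeR or DESeq2, with a median difference of -0.09 beside -0.06 for all genes. At an unadjusted p under 0.05 were 3 of the 13, beside 1289 of all 9657 genes. The smallest p belonged to Ggcx, which carboxylates vitamin K-dependent factors (-0.70, adjusted p = 0.114). With dose over all agents F2, prothrombin, rose (0.32, adjusted p = 0.0101), the only one of the 13. That contrast called 18.9% of all genes, 850 higher and 971 lower.

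Anticoagulant proteins had 9 of 11 measured and 0 past the threshold against PBS with any of these tools (0 at an unadjusted p under 0.05 in limma). With dose 4 of the 9 rose, beside 850 of all 9657 genes, namely Serpinc1, which is antithrombin (0.34), Hrg (0.47), Apoh (0.24) and Serping1 (0.25). Fibrinolysis proteins, which dissolve fibrin, also had 9 of 11 measured and 0 past the threshold against PBS (2 at an unadjusted p under 0.05). With dose Plaur, the urokinase receptor, fell (-0.53, adjusted p = 0.0409) in limma, whereas edgeR gave -0.53 with an adjusted p of 0.0677.

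Among 17 of 24 genes for interleukin-6 signalling and fibrinogen transcription, Jak1, a kinase at the receptor, fell over all treated groups (-0.81, adjusted p = 2.0e-04). Jak1 overlaps Raver2 on the opposite strand, so its reads are uncertain. Stat3 overlaps Stat5a and Cebpb overlaps Tmem189 in the same way, so their reads are uncertain too. Of genes named elsewhere, Apoh and Angptl6 also overlap a gene in the files on the opposite strand, and Cfb overlaps one on the same strand. Of the factors that act at the chain promoters, Stat3 differed by -0.28 (adjusted p = 0.379) and Cebpb by -0.49 (0.114), and neither passed. The receptor subunits Il6ra and Il6st differed by -0.19 and 0.22 (0.777 and 0.554). With dose 5 of the 17 passed, beside 18.9% of all genes. Cebpd (0.70) and Hnf4a (0.47) rose and Jak1 (-0.37), Nr3c1 (-1.05) and Ptpn11 (-0.34) fell.

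Other acute phase genes passed in both directions. Of 15 measured genes of the interleukin-6 type (of 17), Hp, haptoglobin, fell over all treated groups (-0.64, adjusted p = 0.0191). With TMM scaling the difference was -0.60 and the call was lost (0.0853). DESeq2 made the call (-0.58, 0.0183), and edgeR with TMM factors did not (-0.59, 0.0584). At 2 µM, where 6.33% of all genes passed with TTR-1236 and 2.25% with Reference 4, Hp fell with TTR-1236 (-0.88) and Reference 4 (-0.79), as did Cp, ceruloplasmin (-1.07 and -0.91), while Mt1, a metallothionein, rose (0.67 and 0.81), as did Hamp, the iron hormone hepcidin, with Reference 4 (1.61). With dose 6 of the 15 rose and 1 fell, beside 850 and 971 of all 9657 genes. Those that rose were Fgl1, Hamp, Serpina3n, Cd14, Mt1 and Mt2, and Cp fell. All 13 genes of the interleukin-1 type were measured. Of these 5 rose with dose, again beside 850 of all genes (Saa1, Saa2, Saa3, Apcs and Cfb), and Lcn2 and Saa3 rose against PBS at 2 µM with TTR-1236 (0.54 and 0.72) and Reference 4 (0.68 and 0.82). Reads of Saa1 and Saa2, close copies, may be divided between them.

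The chaperones and disulfide enzymes of the endoplasmic reticulum, where the chains are joined, were all measured (11 of 11). Hspa5, which binds unfolded chains, fell at 2 µM with TTR-1236 (-0.69) and Reference 4 (-0.74), where 6.33% and 2.25% of all genes passed. Its PBS libraries spread from 585 to 1018 CPM. TTR-1236 at 2 µM reached 587 CPM and so overlapped PBS, and Reference 4 at 2 µM reached 537 CPM. With dose 4 of the 11 passed, beside 18.9% of all genes. P4hb (0.35), Pdia6 (0.49) and Dnajb9 (0.52) rose and Hsp90b1 fell (-0.65). Of genes with a fibrinogen-related domain 5 of 15 were measured. Fgl1 rose with dose (0.89, adjusted p = 0.00180), and Angptl6 rose with TTR-1236 at 2 µM (1.97, adjusted p = 0.0303), a call that edgeR and DESeq2 did not make. Within 1 Mb of the chain genes, 3 of 29 other annotated genes were measured, Plrg1, Tlr2 and Tmem131l. They differed from PBS over all treated groups by -0.08, -0.38 and 0.30, with 0 past the threshold in limma, edgeR or DESeq2 and 0 at an unadjusted p under 0.05 in limma.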

How the data were processed

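The data are 21 libraries of QuantSeq 3′ mRNA-seq, 1 file each. Groups follow the agent and dose that the labels give. Per the submitters' processing notes, reads passed through cutadapt 1.15, HISAT2 2.1.0 and featureCounts on mm10, with settings and annotation release not given in those notes. Values were deposited by the authors as CPM and sum to 1000000 in every file over 9657 shared genes. Multiplying back gave whole reads (tolerance 0.001 reads, 100% of values), which served for the count tests. Symbols and positions came from GENCODE annotation of GRCm38.

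Differences were tested with limma 3.58.1 (R 4.3.3) on log2(CPM + 1), using 7 group means, a trended and robust variance prior and adjustment over all genes. The alternatives were edgeR 4.0.16 and DESeq2 1.42.0 on the recovered reads, other scalings, a pseudocount of 0.5 or of 5, genes of at least 10 CPM on average, only the libraries compared, a replicate block and libraries left out. Correlations used 100000 resamples. The fit was checked on simulated data. The closest replicates differed beyond sampling noise (chi-square over degrees of freedom 25.1). PBS replicate 3 stood farthest apart, at 184 from PBS replicate 1 and 176 from PBS replicate 2, whose own pair gave 40.1. Named genes are the chains, Ttr, the 5 genes most like each chain, known regulators, and list members past the threshold or with the smallest p. Some list members are counted but not reported here by name. Alb and dose calls over all agents were added after values were seen. The members, lists and naming rule were chosen with earlier results of these data known.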

Additional observations from a re-analysis of the deposited data

How the results depend on the processing

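Of the 537 fold changes of chains recomputed under settings that left out no library being compared, 506 kept their sign and their side of the threshold. The signs that turned belonged to differences near 0 that passed under no setting. For Fgg with TTR-1236 at 2 µM against PBS the difference became 0.0192 with TMM-rescaled CPM, 0.0160 with edgeR and TMM, and 0.0329 with edgeR on DESeq2 size factors and with DESeq2. For Fga with Reference 4 at 2 µM it became 0.0169, 0.0184, 0.0303 and 0.0303 in that order. For Fgg with Reference 4 at 2 µM it was 0.0109, 0.0222 and 0.0220 with edgeR and TMM, edgeR on DESeq2 size factors, and DESeq2. For Fgg between TTR-1236 and Reference 4 at 2 µM it was 0.0200, 0.0051, 0.0108 and 0.0109 over the 4 settings. The dose difference of Fgb in TTR-1236 less that in Reference 4 became 0.0155 with edgeR on DESeq2 size factors and with DESeq2. After subtracting group means, r fell to 0.2831 for Fga and Fgg and turned to -0.1191 for Fgb and Fgg.

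Some differences gained the threshold. DESeq2 called Fgb against PBS at 0.2 µM of TTR-1186 (-0.7553) and Reference 4 (-0.7922), Fgg between TTR-1236 and TTR-1186 at 2 µM (0.5709), Fga between TTR-1186 and Reference 4 at 2 µM (-0.5866), and Fga and Fgb over all treated groups (-0.5239 and -0.5416). Fgb at 0.2 µM of Reference 4 passed with a pseudocount of 5 (-0.8635) and a minimum mean of 10 CPM (-0.8671). The rise of Fgb with dose of Reference 4 passed with TMM-rescaled CPM (0.5247), DESeq2 (0.5115) and, at 0.5415, with a minimum mean of 10 CPM, with only the libraries compared and without the pair below. Only the libraries compared, a fit with fewer samples, lost Fga at 0.2 µM of TTR-1186 (-1.1511) and Reference 4 (-0.9950). A setting chosen after seeing the data left out PBS replicate 3 and replicate 2 of TTR-1186 at 2 µM, which had the least mitochondrial ribosomal RNA of their groups. It called Fgb at 0.2 µM of TTR-1236 (-0.8673), TTR-1186 (-0.9904) and Reference 4 (-1.0220), and Fga and Fgb over all treated groups (-0.6360 and -0.7762). The cause of these changes was not tested.

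With each library left out in turn, Fga at 0.2 µM of Reference 4 against PBS ranged from -1.0872 to -0.8795, and Fgb at 0.2 µM from -0.8673 to -0.5867 with TTR-1236, -0.9904 to -0.7391 with TTR-1186 and -1.0220 to -0.7611 with Reference 4. Over all treated groups Fga ranged from -0.6255 to -0.5591 and Fgb from -0.7563 to -0.5202, and the rise of Fgg with dose from 0.2552 to 0.3494. Differences near 0 turned sign in some of these fits: Fga (-0.0629 to 0.0032) and Fgg (-0.1226 to 0.0855) with Reference 4 at 2 µM against PBS, Fgb between TTR-1186 and Reference 4 (-0.0864 to 0.1313) and between TTR-1236 and TTR-1186 (-0.0118 to 0.2488) at 0.2 µM, Fgb between TTR-1236 and Reference 4 at 2 µM (-0.0550 to 0.2208), and Fgg between TTR-1236 and Reference 4 at 0.2 µM (-0.1856 to 0.0599) and 2 µM (-0.1373 to 0.0709). So did the dose difference of TTR-1236 less that of Reference 4 for Fgb (-0.2209 to 0.0661) and Fgg (-0.0881 to 0.1731), and the ratio of Fga to Fgb (-0.0472 to 0.1308).

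The counts of genes called, against which the chains are read, moved far more. Against PBS over all settings they ranged from 1 to 88 for TTR-1186 at 0.2 µM (3 as reported), 1 to 150 for TTR-1236 at 0.2 µM (2), 2 to 275 for Reference 4 at 0.2 µM (16), 22 to 1914 for TTR-1236 at 2 µM (611), 1 to 37 for TTR-1186 at 2 µM (5), 6 to 1571 for Reference 4 at 2 µM (217) and 3 to 869 over all treated groups (7). Between agents they ranged from 0 to 499 at 0.2 µM (0 in each pair) and from 0 to 553 at 2 µM (33, 0 and 36). Between doses they ranged from 0 to 71 for TTR-1186 (0), 208 to 1819 for Reference 4 (1239), 0 to 242 for TTR-1236 (13) and 1274 to 2123 over all agents (1821).

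The labels give the groups the same replicate numbers, but same-numbered libraries did not deviate together, with a median correlation of 0.018 over 63 pairs, from -0.392 to 0.289, and 5 of 21 libraries closest to their own number. With the replicate number as a block no call of a chain changed. The block moved the count of genes called from 13 to 44 for the TTR-1236 doses and from 16 to 11 for Reference 4 at 0.2 µM. Each chain had at least 1494 reads per library, and 3 libraries per group did limit the precision. The libraries of Reference 4 at 0.2 µM, with 14158740 to 14971332 reads, were among the shallowest. The part of depth in the chains' differences was not tested.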
